A study of Mus musculus with 12 samples.

Results

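XAV939 lowered the transcripts of 2 secreted regulators of TGF-beta family signalling, Nodal and Fst, in mouse epiblast stem cells (EpiSCs), in a test that combined cells with and without CHIR99021. Their arrays did not overlap in either setting, but in the cells without CHIR99021 taken alone no gene passed. Smaller falls passed the test in the Wnt feedback gene Axin2, in the streak gene Eomes and in the microRNA cluster of miR-302 and miR-367, and 49 genes rose, led by Tet3, Dll1 and Zhx2. Of all called genes, only Nodal and Fst kept their call in each of the 24 fits tried. The call of Tet3 and its place as the largest rise rest on the choice of probe. The effect of XAV939 was taken from all 12 arrays of the series, 6 from cells given XAV939 and 6 from cells not given it, with CHIR99021 present or absent as the other factor of an additive model. The model was fitted to 19938 genes, each read by its brightest probe with a single gene symbol.

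EpiSCs are pluripotent and correspond to the postimplantation epiblast, the layer of the embryo that goes on to gastrulate. The cells had genetic background 129, and a further label field calls them embryonic stem cells. There were 4 groups of 3 arrays: untreated cells, cells given XAV939 at 2 µM, cells given CHIR99021 at 3 µM, and cells given both compounds. The design text describes 12 h in serum-free medium before treatment, although the growth medium recorded for every sample, untreated ones included, holds 10% fetal bovine serum. CHIR99021 was given for 2 h, and the time with XAV939 is 2 h in the sample labels and 4 h in the design text. Whether the 3 arrays of a group stem from independent cultures is not stated, so the p-values refer to the scatter among these samples, part or all of which may be technical. The number of arrays limits the precision.

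In the Wnt pathway, beta-catenin is held low by a destruction complex built on the scaffold proteins Axin1 and Axin2, with the kinase GSK3 as its active enzyme. Tankyrases attach ADP-ribose chains to Axin, which marks it for ubiquitination by the ligase Rnf146 and for degradation. XAV939 inhibits tankyrase, which stabilises Axin protein and lowers beta-catenin, and CHIR99021 inhibits GSK3, which raises it. Wnt and Nodal signals together pattern the primitive streak of the embryo, and EpiSCs in culture depend on activin or Nodal signalling. The cluster of miR-302 and miR-367 encodes microRNAs that are abundant in pluripotent cells, and bases 2 to 8 of a mature microRNA, the seed, pair with its target transcripts.

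Mature sequences encoded by the 6 lower microRNA genes are printed first, because 5 of the 27 lower genes are hairpins of this cluster. The falls were read from probes named for the hairpin genes, and no mature arm was measured on its own. In RefSeq, assembly GRCm38.p6, the hairpins Mir302b, Mir302c, Mir302a, Mir302d and Mir367 lie in this order within 580 bases on the plus strand, chr3:127545228-127545807. They lie inside Larp7, which is on the opposite strand. Capitals mark the seed. The 3-prime arm of miR-302a is named only, and its 5-prime arm is shown.
mmu-miR-302b-3p: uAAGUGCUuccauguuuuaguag
mmu-miR-302d-3p: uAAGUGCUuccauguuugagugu
mmu-miR-302c-3p: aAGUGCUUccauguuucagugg
mmu-miR-302a-5p: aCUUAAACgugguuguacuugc
mmu-miR-367-3p: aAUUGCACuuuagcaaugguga
mmu-miR-139-5p: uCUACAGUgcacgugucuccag
The 3-prime arms of miR-302b and miR-302d share the seed AAGUGCU. In miR-302c the same run of letters begins 1 base nearer the 5-prime end, so its seed reads AGUGCUU. miR-367 has the unrelated seed AUUGCAC, and miR-139 is encoded on chromosome 7.

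Values are log2 expression as deposited, and a change is the difference in log2 expression between arrays with and without XAV939. By the limma test, 76 of 19938 genes passed an adjusted p of 0.05, which is 0.381% of genes, and are called changed below. Of these, 49 were higher (0.246%) and 27 lower (0.135%). Changes were small: the higher genes rose by 0.23 to 0.46 and the lower genes had changes between -0.60 and -0.29, or 1.18-fold to 1.52-fold. At an unadjusted p under 0.05 there were 3399 genes, 17.0% of those tested, 1902 higher and 1497 lower. The count of 76 for the XAV939 main effect depended on single arrays and on scaling. Leaving out untreated replicate 1 raised it to 116, while leaving out replicate 2 gave 5 and replicate 3 gave 2. Omitting a CHIR99021 array gave 21 for replicate 1, 24 for replicate 2 and 13 for replicate 3. Omitting an XAV939 array gave 3, 3 and 4 in the same order. Omitting an array of cells given both compounds gave 26, 2 and 36. The split of 49 higher and 27 lower became 11 and 16 after quantile normalization, 111 and 31 after median centring, and 1 and 2 after cyclic loess normalization. Of the 76 genes, only Nodal and Fst kept their call in each of the 24 fits tried. Each of the other called genes lost its call without at least 1 single array. None of the 76 turned its sign in any fit, which their choice on these same arrays made likely. When all 35399 probes, named or not, were tested together, Nodal and Fst were the 2 called genes of the 76.

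Nodal, a TGF-beta family ligand that patterns the early embryo, had the largest change of the called genes. Its log2 expression was 6.92, 6.78 and 6.75 in the untreated arrays and 6.36, 6.35 and 6.33 with XAV939. It was 8.49, 8.57 and 8.67 with CHIR99021 and 8.02, 7.63 and 7.86 with both compounds. All XAV939 arrays lay below all their counterparts in either setting, and the arrays with both compounds stayed above the untreated ones. The additive change was -0.60 (SE 0.07, limma adjusted p = 0.00148), with -0.47 without CHIR99021 and -0.74 with it. The change with CHIR99021 in the same model was 1.63.

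Fst encodes follistatin, a secreted protein that binds activin and blocks it. Its log2 expression was 7.88, 8.08 and 7.97 in untreated cells and 7.55, 7.49 and 7.30 with XAV939. It was 9.83, 9.79 and 9.75 with CHIR99021 and 9.24, 8.91 and 9.24 with both compounds. Again no XAV939 array overlapped its counterparts. The change was -0.60 (SE 0.07, limma adjusted p = 0.00148), with -0.53 without CHIR99021 and -0.66 with it, beside a CHIR99021 change of 1.74.

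The rest of the Nodal and activin pathway was not called. Of 26 measured genes of that list, 2 (7.69%) were lower and none higher, against 0.381% called among all genes, and the median change was 0.02, against -0.003 over all genes. This list and those below were chosen with earlier results of these data known. No enrichment was tested, so the shares of called members describe the lists only. The genes with the smallest p after Fst and Nodal were Furin, a protease that matures TGF-beta family ligands, at 0.22 (limma adjusted p = 0.109), and Ski, a repressor of Smad factors, at 0.13 (limma adjusted p = 0.193). Both values are above 0 and neither passed.

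**Figure D1:**
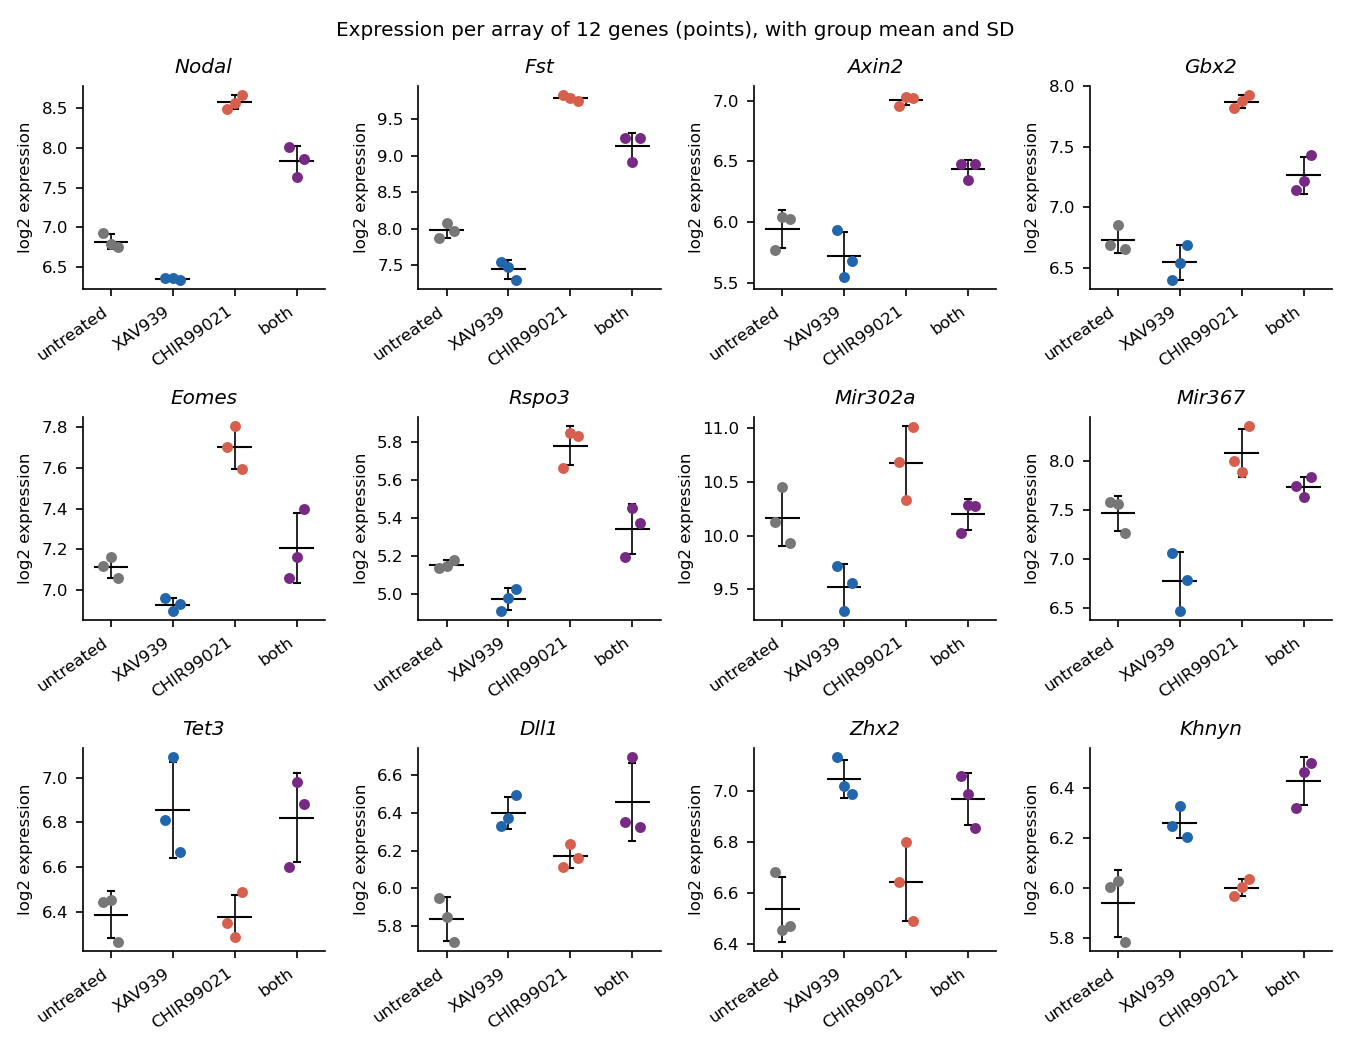
Log2 expression (y axis, scaled per panel and not from 0) of 12 genes in each of the 12 arrays, by group, with the group mean and SD of 3 arrays. Nodal and Fst fall from untreated to XAV939 and from CHIR99021 to both compounds, Axin2 and Gbx2 overlap between untreated and XAV939, and Tet3, Dll1, Zhx2 and Khnyn are higher in both XAV939 groups.

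Axin2, a scaffold of the destruction complex and itself a transcriptional target of Wnt signalling, fell. Its log2 expression was 5.77, 6.04 and 6.03 in untreated cells and 5.94, 5.55 and 5.68 with XAV939, and these arrays overlap. With CHIR99021 it was 6.96, 7.03 and 7.02, and with both compounds 6.48, 6.35 and 6.48, with no overlap. The change was -0.40 (SE 0.08, limma adjusted p = 0.0431), made up of -0.22 without CHIR99021 and -0.57 with it. The call was lost when any single array other than untreated replicate 1 or XAV939 replicate 1 was left out, while the change stayed between -0.46 and -0.36 over all fits.

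Among 22 measured Wnt/beta-catenin target genes, 1 was called lower, Axin2, and none higher, so 4.55% were called against 0.381% of all genes. The median change was -0.06, and 14 of the 22 were below 0. Dkk1, a secreted Wnt antagonist, had a change of -0.26 (limma adjusted p = 0.0555), Sp5, a zinc finger repressor, -0.43 (limma adjusted p = 0.0797), and Cdx4, a homeobox factor, -0.24 (limma adjusted p = 0.116). None of these passed, and the means of all 3 over the arrays were below 4.93. That value is the 95th percentile of 1190 olfactory and vomeronasal receptor genes and serves here as a rough level of background. Sp5 read 4.40, 4.19 and 4.41 in untreated cells and 4.08, 4.33 and 4.15 with XAV939, which overlap. It read 5.65, 5.46 and 5.14 with CHIR99021 and 4.98, 4.55 and 4.58 with both compounds. Other feedback genes did not pass, among them Lef1 at 0.04, the antagonist gene Nkd1 at -0.07 and the Wnt receptor ligase gene Znrf3 at 0.10. Brachyury (Tbxt) and Tcf7 were not analysed here.

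Of 21 destruction complex, tankyrase and Dvl genes, Axin2, which belongs to 3 of the lists, was lower (4.76%, against 0.381% of all genes) and none was higher. Changes were above 0 in 16 of them, with a median of 0.04. All 21 lay above the background level, where the median of all genes was 0.03 and 7467 of 11647 were above 0. Tnks, which encodes tankyrase 1, had a change of 0.21 (limma adjusted p = 0.0683). It read 9.34, 9.34 and 9.35 in untreated cells against 9.49, 9.68 and 9.55 with XAV939, and 9.41, 9.34 and 9.43 with CHIR99021 against 9.56, 9.66 and 9.53 with both. The arrays did not overlap in either setting, which was so for 2.36% of all genes in this direction, and the adjusted p missed the threshold. It passed after median centring (limma adjusted p = 0.0498), among genes at or above the median of expression (0.0364) and with trend and robust settings (0.0468), and lay between 0.052 and 0.165 in the other fits. Dvl3, a signal transducer upstream of the complex, had 0.17 and Axin1 0.18, and neither passed. Tnks2 at 0.05, Rnf146 at 0.03 and the beta-catenin gene Ctnnb1 at 0.04 lay nearer 0, and the value of Rnf146 turned below 0 after quantile or cyclic loess normalization. Of 16 tankyrase binding partners, Axin2 was again the one called (6.25%, against 0.381% of all genes). Amotl1, a binder of the Hippo effector YAP, had a change of 0.26 (limma adjusted p = 0.0538). Notch2, a receptor of the Notch pathway, had 0.25 (limma adjusted p = 0.0699).

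Rspo3, a secreted amplifier of Wnt signalling, fell. Its log2 expression was 5.13, 5.15 and 5.18 in untreated cells and 4.91, 4.98 and 5.03 with XAV939. It was 5.66, 5.85 and 5.83 with CHIR99021 and 5.20, 5.45 and 5.37 with both compounds, so neither pair of groups overlapped. The values without CHIR99021 lie close to the background level of 4.93. The change was -0.31 (SE 0.06, limma adjusted p = 0.0438). Among the 25 genes of Wnt ligands, R-spondins and Wnt secretion factors it was the one called (4.0%, against 0.381% of all genes). Changes were below 0 in 19 (76.0%, against 51.1% of all genes), with a median of -0.07. Wnt5b had -0.23 (limma adjusted p = 0.0532), Wnt8a -0.18 (limma adjusted p = 0.105) and Wnt5a -0.26 (limma adjusted p = 0.185). Of the 25, 16 lay below the background level, where the median change of all genes was also below 0, as described below.

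Of 18 Wnt receptor genes none was called, beside 0.381% of all genes. Those with the smallest p were Fzd3 at 0.23 (limma adjusted p = 0.102) and Lrp5 at 0.16 (limma adjusted p = 0.176). Of 12 TCF/LEF factors and co-repressors none was called either, and the median was 0.03.

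Eomes, a T-box factor of the primitive streak and a known target of Nodal signalling, fell. Its log2 expression was 7.12, 7.16 and 7.06 in untreated cells and 6.96, 6.90 and 6.93 with XAV939, and 7.70, 7.80 and 7.60 with CHIR99021 and 7.06, 7.16 and 7.40 with both compounds. There was no overlap in either setting, and the arrays with both compounds spread over the range of the untreated ones and above it. The change was -0.34 (SE 0.07, limma adjusted p = 0.0474), with -0.18 without CHIR99021 and -0.49 with it. Of 24 measured primitive streak and mesendoderm genes, Eomes was lower (4.17%, against 0.381% of all genes) and none was higher. Changes were below 0 in 20 of them (83.3%, against 51.1% of all genes), with a median of -0.06. Of the 24, 15 lay below the background level, and the median change of all genes in the dim bins 3 and 4 described below was -0.05. Eomes, Dkk1, Sp5 and Wnt8a had the smallest p of this list.

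Gbx2, a homeobox gene of naive pluripotency and of the midbrain boundary, fell. It read 6.69, 6.86 and 6.65 in untreated cells and 6.40, 6.54 and 6.69 with XAV939, which overlap. It read 7.82, 7.87 and 7.92 with CHIR99021 and 7.14, 7.21 and 7.43 with both compounds, which do not. The change was -0.40 (SE 0.08, limma adjusted p = 0.0439), with -0.19 and -0.61 in these settings. Among 16 naive pluripotency genes Gbx2 was the one called (6.25%, against 0.381% of all genes). Klf2, a Kruppel-like factor of the naive state, had -0.20 (limma adjusted p = 0.0653), Tbx3 -0.17 and Socs3 -0.14.

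Cited2, a transcriptional co-activator that binds p300, fell as well. It read 8.98, 9.03 and 9.05 in untreated cells and 8.88, 8.85 and 8.85 with XAV939, a small shift without overlap. It read 9.80, 9.73 and 9.61 with CHIR99021 and 9.36, 9.17 and 9.19 with both compounds. The change was -0.31 (SE 0.06, limma adjusted p = 0.0438). The calls of Gbx2, Eomes, Cited2 and Rspo3 each survived the loss of untreated replicate 1 and no other single array. Their changes ranged from -0.46 to -0.35, -0.39 to -0.29, -0.34 to -0.28 and -0.34 to -0.26 over the fits.

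The 5 hairpin genes of the miR-302 and miR-367 cluster all fell. Mir302a read 10.12, 10.45 and 9.93 in untreated cells and 9.72, 9.30 and 9.56 with XAV939. It read 10.69, 10.34 and 11.02 with CHIR99021 and 10.03, 10.29 and 10.28 with both compounds. No XAV939 array overlapped its counterparts, but the 3 arrays with CHIR99021 alone ranged from 10.34 to 11.02, and the lowest of them came close to the arrays with both compounds. Mir367 read 7.59, 7.56 and 7.27 in untreated cells, 7.06, 6.47 and 6.79 with XAV939, 8.0, 7.89 and 8.35 with CHIR99021, and 7.75, 7.63 and 7.84 with both.

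Across the cluster, whose mature sequences are printed above, changes were -0.56 for Mir302a, -0.54 for Mir302d and Mir302b, -0.52 for Mir367 and -0.50 for Mir302c. The standard errors were 0.10 to 0.11 and the limma adjusted p values 0.0381 to 0.0452. The arrays of Mir302c and Mir302d overlapped with CHIR99021 present. Each change was larger without CHIR99021 than with it, for example -0.69 and -0.34 for Mir367, a difference that passed for none of them. The CHIR99021 change was 0.59 for Mir302a and 0.79 for Mir367. The 5 probes are not independent readings, since their deviations from the group means correlated at 0.70 to 0.97 across the 12 arrays. Larp7, the host gene on the other strand, had a change of 0.05 (limma adjusted p = 0.753). Whether the probes read the primary transcript or processed RNA was not tested.

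These calls were sensitive to single arrays. Mir302b kept its call without untreated replicate 1, CHIR99021 replicate 2 or replicate 3 of both compounds, Mir302a and Mir302d without untreated replicate 1 or CHIR99021 replicate 2, and Mir302c and Mir367 only without CHIR99021 replicate 2. Their changes stayed between -0.66 and -0.43 in all fits.

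Over all 291 microRNA genes measured, 6 were called lower and none higher, which is 2.06% against 0.381% of all genes. Of these 6, 5 are the hairpins of the cluster, whose probes are not independent readings. The share therefore does not show an excess of calls among microRNA genes outside the cluster. The sixth was Mir139, at 7.23, 7.21 and 7.08 in untreated cells and 6.77, 6.71 and 6.87 with XAV939, a change of -0.32 (limma adjusted p = 0.0438). Of the 291, 197 had changes below 0 (67.7%, against 51.1% of all genes), the median was -0.05 and 102 lay above the background level. The median change of all genes in the dim bins 3 and 4 described below was also -0.05. The other measured microRNAs with the seed AUUGCAC did not pass. Mir25 had -0.19 (limma adjusted p = 0.239), Mir92b -0.15, Mir92-2 -0.04, Mir32 0.05 and Mir363 0.05. Larp7 and these genes were chosen after the values of the cluster were seen.

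**Figure D2:**
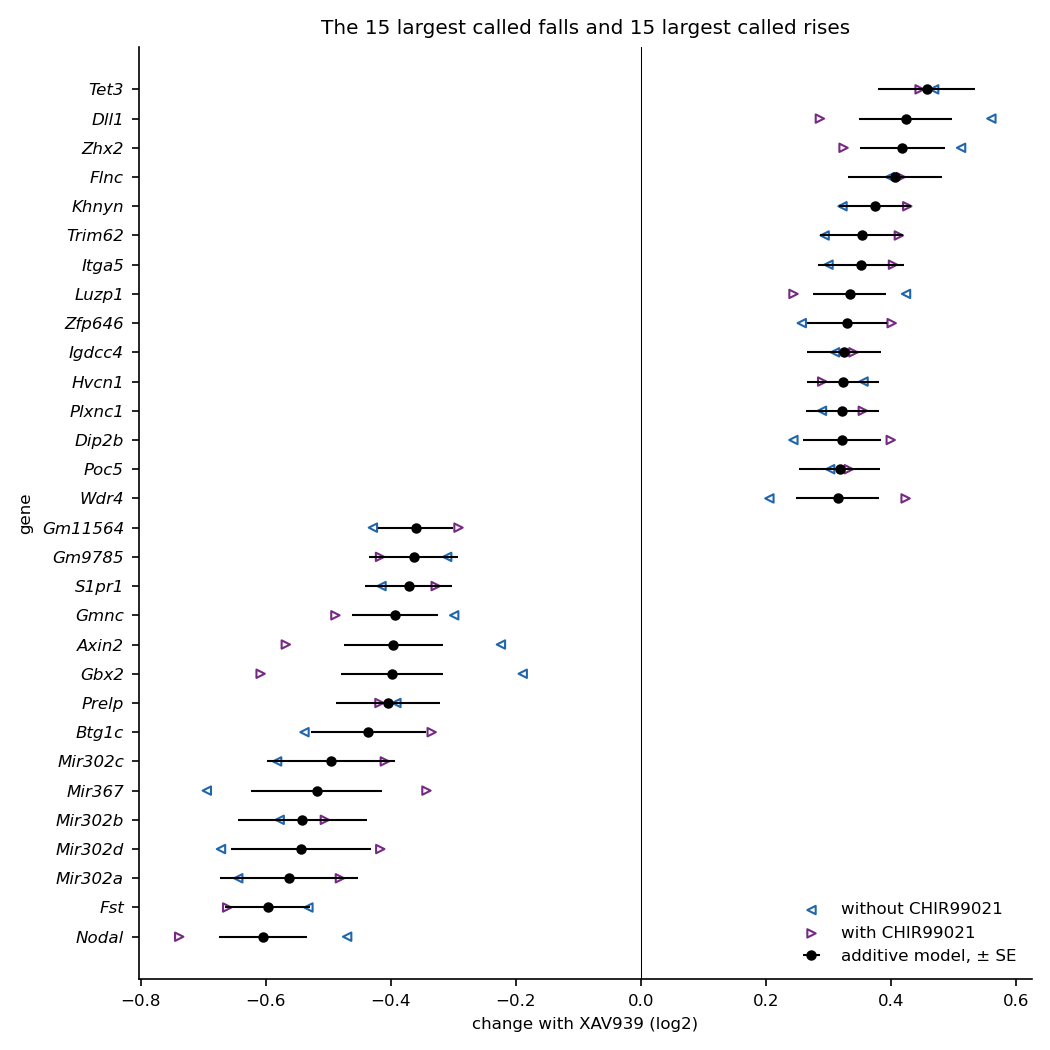
Change with XAV939 (x axis, log2) of the 15 called genes with the largest falls and the 15 with the largest rises (y axis). Filled points are the additive estimate ± SE over 12 arrays, and open triangles are the changes without and with CHIR99021, which have the same sign for every gene shown.

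Like Rspo3 without CHIR99021, other lower genes lay near the background level. Of the 27, 9 had a mean below it, among them Btg1c (-0.44), Prelp (-0.40), Gmnc (-0.39) and S1pr1 (-0.37). Prelp encodes a matrix proteoglycan, Gmnc a geminin-like factor of multiciliated cells and S1pr1 a receptor for sphingosine phosphate. S1pr1 read 4.91, 5.14 and 5.17 in untreated cells and 4.60, 4.83 and 4.55 with XAV939, and 5.09, 4.90 and 5.04 with CHIR99021 and 4.85, 4.65 and 4.54 with both compounds. The groups did not overlap, yet all of these values are close to 4.93. Gm9785 and Gm11564, whose roles are not given here, each had a change of -0.36.

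Tet3 had the largest rise. It encodes a dioxygenase that oxidises 5-methylcytosine in DNA. Its log2 expression was 6.44, 6.45 and 6.27 in untreated cells and 6.81, 7.09 and 6.67 with XAV939. It was 6.35, 6.29 and 6.49 with CHIR99021 and 6.60, 6.98 and 6.88 with both compounds. No arrays overlapped. The change was 0.46 (SE 0.08, limma adjusted p = 0.0301), with 0.47 and 0.45 without and with CHIR99021. A second, dimmer probe of Tet3 had a change of 0.05, and with the mean of its probes Tet3 had 0.25 and did not pass (limma adjusted p = 0.0699, in a range of 0.0201 to 0.0904 over all fits). Its call, and its place as the largest rise, rest on the choice of probe.

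Dll1, a ligand of Notch receptors, rose. It read 5.95, 5.85 and 5.72 in untreated cells and 6.33, 6.37 and 6.49 with XAV939. It read 6.11, 6.24 and 6.16 with CHIR99021 and 6.35, 6.69 and 6.32 with both compounds, so no arrays overlapped. The change was 0.42 (SE 0.07, limma adjusted p = 0.0348), with 0.56 without CHIR99021 and 0.29 with it.

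Dll1 was the 1 called gene among 27 Notch pathway genes (3.7%, against 0.381% of all genes). The median change of the list was 0.08, with 18 above 0. Among all genes above the background level, where 24 of the 27 lie, 7467 of 11647 were above 0, with a median of 0.03. Hes1, a repressor induced by Notch signalling, had 0.31 (limma adjusted p = 0.0607). Its arrays did not overlap in either setting, and separation in the same direction in both settings held for 3.6% of all genes. The receptor genes Notch2 and Notch1 had 0.25 and 0.22 (limma adjusted p = 0.0699 and 0.0734). Nrarp, a feedback inhibitor induced by Notch, had a value of opposite sign, -0.24 (limma adjusted p = 0.104). The median of this list stayed above 0 under each scaling tried.

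Zhx2, a zinc finger and homeobox repressor, read 6.68, 6.45 and 6.47 in untreated cells and 7.13, 7.02 and 6.99 with XAV939. It read 6.64, 6.80 and 6.49 with CHIR99021 and 7.06, 6.99 and 6.86 with both compounds. The groups stayed apart, and the change was 0.42 (SE 0.07, limma adjusted p = 0.0301). Khnyn, which encodes a cytoplasmic protein with a predicted nuclease domain, rose by 0.37 (SE 0.06, limma adjusted p = 0.0293). It read 6.0, 6.03 and 5.78 in untreated cells and 6.25, 6.33 and 6.20 with XAV939, and 5.97, 6.0 and 6.03 with CHIR99021 and 6.32, 6.46 and 6.50 with both. Its call was kept in 8 of the 12 fits that left out 1 array, more than that of any other higher gene. It did not pass when untreated replicate 3, XAV939 replicate 1, XAV939 replicate 2 or the second array with both compounds was left out. Zhx2 kept its call without untreated replicate 1, CHIR99021 replicates 1 or 2, or the arrays 1 or 3 with both compounds. For Tet3 these were untreated replicate 1, CHIR99021 replicate 3, XAV939 replicate 3, or the arrays 1 or 3 with both. For Dll1 they were untreated replicate 1, CHIR99021 replicate 2, or the arrays 1 or 3 with both, and Tet3 ranged from 0.25 to 0.51 over all fits.

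Further called rises are given by what the genes encode. Flnc, a filamin that crosslinks actin, rose by 0.41 (SE 0.08) and Itga5, the integrin chain that binds fibronectin, by 0.35 (SE 0.07). Fn1, fibronectin itself, rose by 0.27, Nid1, a basement membrane protein, by 0.30, and Cdh3, P-cadherin, by 0.30. Cdh3 read 7.51, 7.42 and 7.47 in untreated cells and 7.76, 7.87 and 7.77 with XAV939, and 7.22, 7.16 and 7.20 with CHIR99021 and 7.51, 7.46 and 7.44 with both compounds. Its groups were tight and did not overlap. Fn1, Nid1 and Cdh3 were chosen after their values were seen, as were the genes of the next paragraph that are not among the 15 largest rises.

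Dync1h1, the heavy chain of the motor dynein, rose by 0.31 and Map1b, a microtubule-associated protein, by 0.30. The kinesin motor genes Kif1a and Kif13a rose by 0.26 and 0.29, and Dst, which encodes the linker dystonin, by 0.26. Gli3, a transcription factor of Hedgehog signalling, rose by 0.26, Lrp2, the endocytic receptor megalin, by 0.29, and Adar, which edits adenosine in RNA, by 0.30. Plxnc1, a semaphorin receptor, and Hvcn1, a proton channel, each rose by 0.32. Trim62, a ubiquitin ligase, rose by 0.35, Luzp1, a cytoskeletal leucine zipper protein, by 0.33, and Poc5, a centriole protein, by 0.32. Zfp646 and Igdcc4 rose by 0.33, Dip2b by 0.32 and Wdr4, a subunit of a tRNA methyltransferase, by 0.31. No enrichment was tested for these groupings.

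Brightness and gene span of the called genes were also compared, with no test. All 49 lay above the background level, with means from 5.82 to 9.37. Their median gene span in RefSeq was 65.6 kb, against 22.7 kb for all genes above the background level and 3.22 kb for the 27 lower genes, which include 6 microRNA genes. Of the 49, 48 had XAV939 arrays that did not overlap their counterparts in either setting, and Itga5 overlapped between untreated and XAV939. Of the 27 lower genes, 19 were apart in both settings, 25 without CHIR99021 and 21 with it. Among all 19938 genes, 3410 were apart without CHIR99021 and 3126 with it, in the direction of their additive change. Genes with such separation in the same direction in both settings made up 3.6% of all genes, 471 higher (2.36%) and 247 lower (1.24%). Since the calls were made on the same arrays, this describes them and supports nothing further. Where a called gene had other probes, these read lower: 0.05 to 0.20 for Arfgef2 against 0.30 for its brightest probe, and 0.20 and 0.25 for Hectd4 against 0.31.

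Gadd45b, a gene that responds to stress and growth arrest, rose with XAV939. It read 6.96, 6.97 and 6.83 in untreated cells and 7.05, 7.11 and 7.16 with XAV939, and 6.27, 6.16 and 6.23 with CHIR99021 and 6.64, 6.69 and 6.49 with both compounds. No arrays overlapped, and the change was 0.29 (SE 0.06, limma adjusted p = 0.0431), beside a CHIR99021 change of -0.60. Of the fits that left out 1 array, it kept its call only without untreated replicate 1. It was the 1 called gene of 29 immediate early genes (3.45%, against 0.381% of all genes), of which 21 were above 0. The transcription factor gene Atf3 had 0.34 (limma adjusted p = 0.0973), with 0.58 without CHIR99021 and 0.11 with it. Gadd45a had 0.25 and Ier2 0.19, and neither passed.

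Some lists with no called member had medians above 0. After median centring the ATF4, lysosome and Hippo/YAP lists each had 1 called member. Among all 19938 genes, 142 were called in that fit. The share called there among genes above the background level is not given, so no excess can be read from these single calls. For 24 ATF4 and amino acid stress genes the median was 0.10, with 20 above 0. Ddit4, an inhibitor of mTORC1, had 0.31 (limma adjusted p = 0.0668) and Ppp1r15a, a phosphatase subunit of the stress response, 0.34 (limma adjusted p = 0.0798). For 34 lysosome and TFE/folliculin genes the median was 0.09, with 31 above 0. The smallest p values there were for Gaa, the lysosomal glucosidase, at 0.32 (limma adjusted p = 0.0532), and Dpp7, a lysosomal peptidase, at 0.27 (limma adjusted p = 0.0701). For 16 Hippo/YAP target genes the median was 0.13, with 10 above 0 and 6 below, and Amotl1 had the smallest p. The median of this list was 0.12 without CHIR99021 and 0.05 with it. Ccn1 had 0.20 and Amotl2 0.16, Ccn2 had -0.10, and none passed. These medians stand beside 0.03 for all 11647 genes above the background level, of which 7467 were above 0 and 0.575% were called, and they stayed above 0 under each scaling tried.

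**Figure D3:**
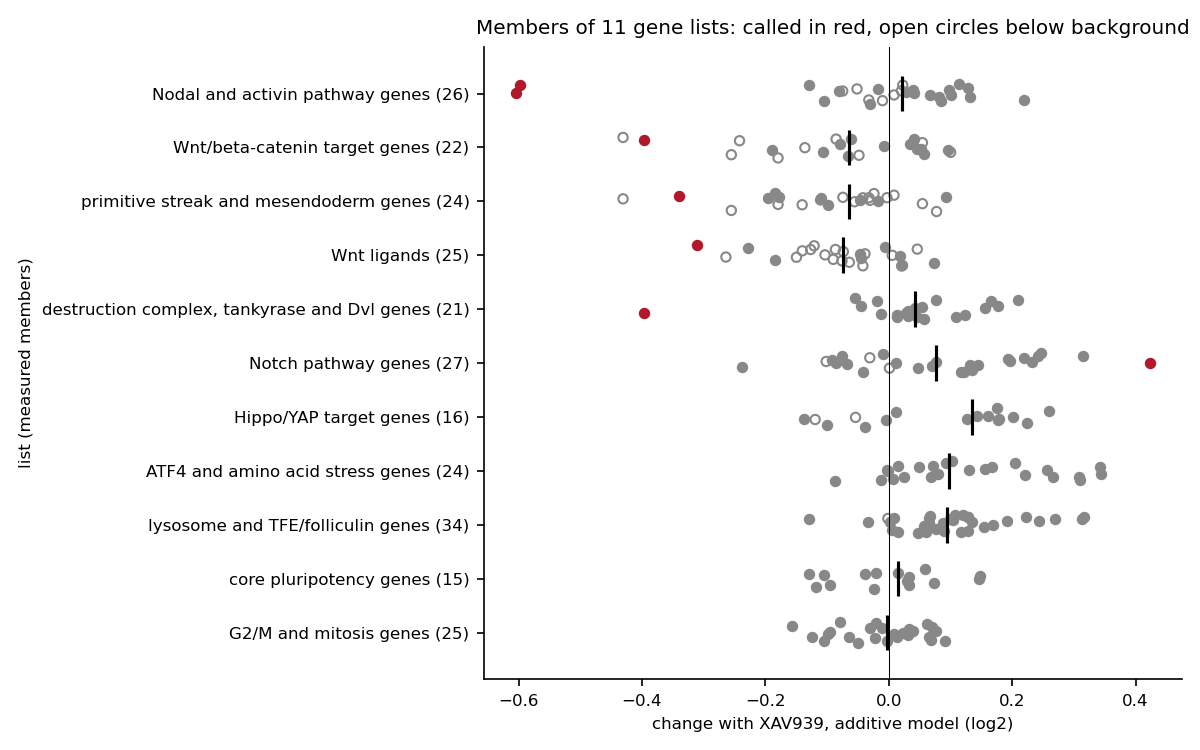
Change with XAV939 (x axis, log2, additive estimate) of every measured member of 11 gene lists (y axis, number measured in brackets), with the list median as a bar. Red points passed the test, open circles lie below the background level, and Sp5, an open circle at -0.43, lies further left than the called Axin2.

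None of the EpiSC markers was called. Of all genes above the background level 0.575% were called, so no call in lists as short as these is near that share. All 14 EpiSC markers lay above the background level, and their mean level per array was 9.45 to 9.53 without XAV939 and 9.36 to 9.60 with it. Pou5f1, which encodes Oct4, had a change of 0.03, Sox2 0.15, Nanog -0.02 and Fgf5 -0.03, and none passed. None of the 15 measured core pluripotency genes or 19 primed epiblast genes was called. Of 16 fibroblast markers, which would mark feeder cells, 6 lay above the background level, at list means of 4.86 to 4.99 without and 4.81 to 4.94 with XAV939. Of 15 neural markers 8, and of 17 endoderm markers 11, were above it, and their list means overlapped between arrays with and without XAV939. No member of these 3 lists was called. In bulk RNA, fewer cells of a type and less RNA per cell cannot be told apart.

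Other lists gave no call, which in lists of this size is near the 0.381% called among all genes. They were BMP pathway and Id genes, FGF/ERK feedback genes, heat shock genes, p53 targets, clock genes, MYC and ribosome biogenesis genes, cholesterol synthesis genes, aryl hydrocarbon receptor targets, G2/M genes, telomere genes, Eph and ephrin genes, and Hox genes. Their median changes lay between -0.05 and 0.04. For 25 G2/M genes the median was -0.003, with 12 above 0 and 13 below, and for 13 telomere and shelterin genes, which include tankyrase partners, it was 0.003. The signs of these 2 medians, and of those for FGF/ERK and p53 genes, turned under at least 1 scaling.

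The changes without CHIR99021 and with it are differences between separate arrays and could be set side by side. Their p-values are not separate, because both came from the same fit of 4 group means. Its variance was pooled over the arrays of both settings. Without CHIR99021 no gene was called by limma, with 2241 genes (11.2%) at an unadjusted p under 0.05 and a smallest adjusted p of 0.156. With CHIR99021 5 genes were called (0.0251%), all lower: Nodal, Fst, Gbx2, Cited2 and Cysltr1. Cysltr1, a leukotriene receptor gene, had -0.45 with CHIR99021 and 0.03 without it, and was not called in the additive model (limma adjusted p = 0.182). It was named after its values were seen. The count of 5 fell to 0 without CHIR99021 replicate 2 or 3 or replicate 2 of both compounds, to 1 without untreated replicate 1 or 2 or CHIR99021 replicate 1, and to 3 without XAV939 replicate 3.

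Across all 19938 genes, the 2 changes had the same sign in 62.4% of genes, with a Pearson correlation of 0.33 across genes, which are not independent replicates. After quantile normalization these values were 58.1% and 0.25, and after cyclic loess normalization 57.8% and 0.25. Of the 100 genes with the smallest p without CHIR99021, 87 had the same sign with it, at a median size of 0.37 in the first setting and 0.15, counted in the same direction, in the other. Of the 100 with the smallest p in the presence of CHIR99021, 86 had the same sign without it. After cyclic loess normalization these counts were 74 and 83. The choice by p used the change in the named setting and a variance drawn from the arrays of both. The smaller size in the setting whose change was not used for the choice is therefore part of each pair of values.

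**Figure D4:**
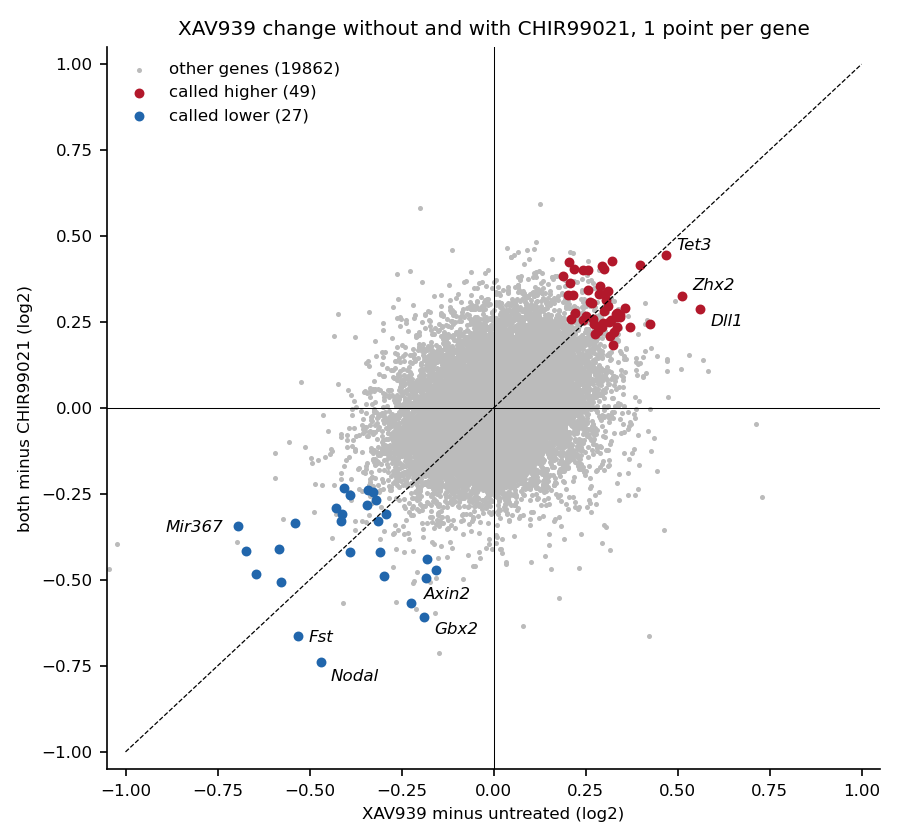
Change with XAV939 without CHIR99021 (x axis, log2) against the change with CHIR99021 (y axis, log2), 1 point per gene, with the line of equal change dashed. The 49 higher and 27 lower genes all lie in the quadrants of equal sign, with Nodal, Gbx2 and Axin2 further from 0 on the y axis than on the x axis and Mir367 and Dll1 the reverse.

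No gene passed the test of a difference between the 2 settings, the interaction of XAV939 and CHIR99021. At an unadjusted p under 0.05 there were 985 genes, 4.94% of those tested. Smallest was Gm14164 at -1.09 (limma adjusted p = 0.107), followed by Dnajb4, a chaperone gene, at -0.64 and Crygb, a lens crystallin gene, at 0.70 (limma adjusted p = 0.352 for both). For these 3 genes the XAV939 arrays lay apart from their counterparts in opposite directions in the 2 settings, which was so for 0.361% of all genes. The 3 were chosen by their interaction p on the same arrays, so the separation describes them and supports nothing further. Of the 27 lower genes, 5 had an unadjusted interaction p under 0.05, namely Gbx2, Cited2, Eomes, Axin2 and Rspo3, and of the 49 higher genes none. After adjustment the smallest of these was 0.965 by limma, so the larger fall of these 5 in the presence of CHIR99021 was not shown to differ from that without it.

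The change with XAV939 also varied with the brightness of a gene, in the same way in both settings. In 10 equal bins of genes by mean expression, from dimmest to brightest, the median change was -0.03, -0.04, -0.05, -0.05, -0.02, 0.04, 0.07, 0.06, 0.04 and 0.00. All 49 higher genes were in the brighter 5 bins, 18 of them in bin 7, and 13 of the 27 lower genes were in the dimmer 5. The standard deviation of values within an array was 2.14 to 2.21 with XAV939 and 2.14 to 2.19 without it. The part of these shifts in the small changes of single genes was not tested beyond the scalings above. After quantile and cyclic loess normalization the changes of Nodal were -0.63 and -0.65, and those of Fst -0.62 and -0.63.

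**Figure D5:**
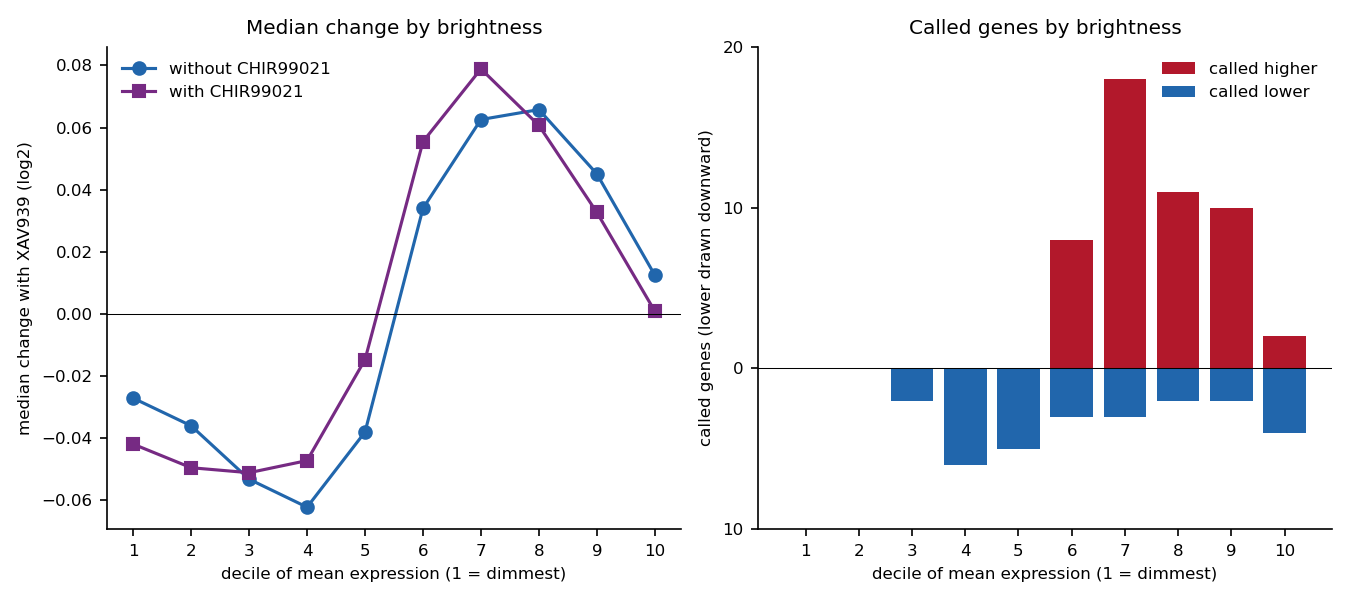
Left, median change with XAV939 (y axis, log2) in each of 10 bins of genes by mean expression (x axis, 1 is the dimmest), without and with CHIR99021. Right, number of called genes per bin, higher drawn upward and lower downward from 0. Medians are below 0 in the dimmest 5 bins and above 0 in the others.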

How the data were processed

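Total RNA from 12 samples was hybridised to 1-colour Affymetrix arrays, per the labels. The authors deposited 1 value per probe, read here as log2 expression because the values span 2.52 to 14.3. The submitters' processing notes name Partek. How background was corrected and arrays normalized is not given in the sources used here. Medians of the arrays were 5.22 to 5.27 and correlations between arrays 0.990 to 0.995, and nothing was normalized again before the tests. Of 35399 probes, 21789 had 1 gene symbol, 1621 several and 11989 were not listed. Of the probes with 1 gene symbol, 91 had a gene identifier without a match in RefSeq (GRCm38.p6) and kept the symbol given. The probe with the highest mean was kept for each of 19938 genes, 999 of which had several.

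The additive model (XAV939, CHIR99021) and a fit of 4 group means, for the changes in each setting and the interaction, used limma 3.58.1 in R 4.3.3 (lmFit, eBayes, two-sided). Adjustment was by Benjamini-Hochberg over all genes, and an adjusted p under 0.05 was called. Tests were tried on simulated data. Named were up to 15 called genes per direction by size, 22 set genes, and, for each list, up to 4 measured genes by p. The members and lists were chosen with earlier results of these data known. Alternatives covered scaling, dim genes, choice of probe, variance settings, array weights, array SD, a replicate block, a fold threshold and single arrays. Figures used matplotlib 3.10.9.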

Additional observations from a re-analysis of the deposited data

Results flagged for a closer look

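Probes without a single gene symbol were outside the comparisons. When all 35399 probes were fitted together with limma, 3 passed the adjusted threshold, 1 higher and 2 lower. The higher one, 1 probe that the annotation does not list, belongs to no named gene here.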

How the results depend on the processing

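The signs of the 76 genes called for the XAV939 main effect held in every fit, which their choice on these same arrays made likely. The count of 76 moved. It was 27 after quantile normalization, 142 after median centring and 3 after cyclic loess normalization. It was 166 among genes at or above the 25th percentile of mean expression (110 higher, 56 lower). It was 250 at or above the median (217 higher, 33 lower), where the median change of all genes tested was 0.04. Fewer genes were tested in both. Array weights gave 210. Without untreated replicate 3 and XAV939 replicate 2 it was 2, and a fold of 1.5 or more left 2. When all 35399 probes were tested together, an alternative chosen after seeing the data, 2 of the 76 genes passed, Nodal and Fst. Leaving out 1 array gave 2 to 116. Replicate numbers did not pair the arrays (same-number correlations of deviations from -0.25 to 0.20, with 4 of 12 arrays best with their own number), and with the replicate number as a block the main effect had 20 calls. The effect without CHIR99021, with 0 calls, had 8 with array weights and 3 with the array standard deviation as a covariate. The effect with CHIR99021, with 5 calls, had 8 after quantile and after cyclic loess normalization, 2 after median centring, 10 at or above the median, 2 with the probe of largest variance, 1 with array weights, 1 with the replicate block, 1 without untreated replicate 3 and XAV939 replicate 2, 3 at a fold of at least 1.5, and 0 to 7 with 1 array left out. The interaction had 1 with trend and robust settings, 1 with array weights, and 0 to 1 with 1 array left out. Signs turned for Nanog (0.018 with array weights, and -0.066 to 0.029 with 1 array left out), Fgf5 (-0.066 to 0.021 with 1 array left out) and Rnf146 (-9e-04 after quantile and -0.014 after cyclic loess normalization, and -0.011 to 0.083 with 1 array left out). The causes were not tested. Arrays give no read depth, and of the 27 lower genes 9 lay below the background level.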
